A study of Mus musculus with 5 samples.

Results

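The genes described here are 10 genes that mark the surface of skeletal muscle satellite cells or belong to their quiescent state: Calcr, Cd34, Vcam1, Ncam1, Cdh15, Cdh2, Sdc3, Sdc4, Cav1 and Foxo3, out of 21938 protein-coding genes in GENCODE M21. All peaks whose nearest edge lay within 50 kb of any annotated transcription start site (TSS) of these genes were taken from 5 CUT&RUN peak lists and split at 3 kb. CUT&RUN maps where a protein or histone mark sits on chromatin by cutting out and sequencing the DNA around an antibody. The selection held 19 of 9534, 14 of 4884 and 12 of 3863 JunB peaks from young mice (replicates 1, 2 and 3, an order kept for all young values below), 23 of 14123 aged JunB peaks, and 54 of 39865 peaks of acetylated lysine 27 of histone H3 (H3K27ac), a mark of active promoters and enhancers.

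The samples were muscle stem cells (MuSCs, the satellite cells) of mouse muscle, with JunB profiled in 3 young libraries labelled as biological replicates and in 1 aged library, and H3K27ac in 1 library whose age is not given. The labels describe the H3K27ac library as CUT&RUN of MuSCs, while the methods name an outside epigenome mapping project beside it, so the origin of these peaks, on which every H3K27ac overlap rests, is not certain. Per the study's methods the cells were freshly sorted as CD45-, CD31-, SCA1- and VCAM+, so the protein of Vcam1, one of the genes described, was itself used to collect them, and the JunB antibody was the same in all 4 JunB libraries. The labels give no strain, no age in months and no drug treatment for any library, while the design text of the series names drug-treated and vehicle-treated mice for JunB; the labelled ages are used here. In the study's own supplementary peak sheet, which is held here only in part, the age headings run the other way round: the peaks of the library labelled aged stand under young, and peaks of young replicate 1 stand under aged. The study's main text and reporting summary, in contrast, give for aged mice the peak number of the list labelled aged and the same number of libraries per age as the GEO labels. Every difference between ages below therefore rests on the GEO labels and on 1 aged library, and no test between ages was possible.

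The 4 JunB lists were not drawn at the same threshold. The lowest −log10 p in the list was 3.01 for both the aged library and young replicate 1, but 5.33 and 5.22 for replicates 2 and 3. Read counts are not part of peak lists, so the depth behind each peak is unknown. The cell label was checked through H3K27ac within 3 kb of a TSS: 6 of 8 MuSC marker genes held such a peak, the exceptions being Pax7 and Myf5, which had one within 50 kb. The same was found for 1 of 5 markers of fibro-adipogenic progenitors (Dcn), 2 of 5 endothelial markers (Pecam1 and Tek), 2 of 5 myofibre markers (Myh1 and Tnnt3) and 0 of 5 immune markers. Of all protein-coding genes, 49.8% held H3K27ac within 3 kb. The check through H3K27ac covers that library alone. JunB peaks within 3 kb were found at 2, 2 and 1 of the 8 MuSC markers in the young lists and at 3 in the aged list, and at none of the 5 fibro-adipogenic markers in any young list but at Pdgfra and Col1a1 (2 of 5) in the aged list. Tek had one in replicate 1 and aged, Myh1 in replicates 1 and 2 and aged, and the immune marker Cd68 in every list. No other endothelial, myofibre or immune marker had one. Of all protein-coding genes, 11.0, 7.74 and 5.91% had a JunB peak within 3 kb in the young lists and 23.9% in the aged list. Pax7 had a JunB peak within 50 kb in each young list and none in the aged list. The part of other cells in the peaks below was not tested.

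Satellite cells lie between the muscle fibre and its basal lamina and stay out of the cell cycle until the muscle is injured. Their surface proteins hold them in this niche and carry its signals: cadherins and immunoglobulin-type adhesion molecules bind neighbouring cells, syndecans present growth factors, and the calcitonin receptor passes on a signal that keeps the cells quiescent. JunB is a subunit of AP-1, a transcription factor dimer of Jun and Fos proteins that recognises the palindrome-like site TGACTCA, read as TGAGTCA on the other strand.

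The following sequences come from the regions on which the results turn. They are given 5′ to 3′ on the + strand of GRCm38 (mm10) about the summit of the strongest JunB peak of each region, with every TGACTCA or TGAGTCA in capitals. Those of Ncam1 are shown because JunB peaks recurred there in every young library. They are the window chr9:49816527-49816627 at the region 17456 bp upstream of a TSS, chr9:49827530-49827828 at 28536 bp upstream, and chr9:49814008-49814306 at 15006 bp upstream, where the aged library had no peak. The window of Sdc4, chr2:164432985-164433085, lies in an intron 9830 bp downstream, that of Cav1, chr6:17347902-17348200, holds the strongest JunB peak near any of the 10 genes, and that of Foxo3, chr10:42231157-42231455, has an AP-1 site close to the summit. The last, chr1:194938996-194939096, is the start of Cd34, where only the aged library had a peak.
Ncam1, 17456 bp upstream: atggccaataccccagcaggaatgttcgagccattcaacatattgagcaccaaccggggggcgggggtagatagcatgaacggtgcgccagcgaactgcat
Ncam1, 28536 bp upstream: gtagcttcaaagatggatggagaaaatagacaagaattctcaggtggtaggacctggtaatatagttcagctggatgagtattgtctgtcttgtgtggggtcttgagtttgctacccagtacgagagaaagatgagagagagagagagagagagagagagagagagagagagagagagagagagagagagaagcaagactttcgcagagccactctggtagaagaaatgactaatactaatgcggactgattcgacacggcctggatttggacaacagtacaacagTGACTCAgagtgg
Ncam1, 15006 bp upstream: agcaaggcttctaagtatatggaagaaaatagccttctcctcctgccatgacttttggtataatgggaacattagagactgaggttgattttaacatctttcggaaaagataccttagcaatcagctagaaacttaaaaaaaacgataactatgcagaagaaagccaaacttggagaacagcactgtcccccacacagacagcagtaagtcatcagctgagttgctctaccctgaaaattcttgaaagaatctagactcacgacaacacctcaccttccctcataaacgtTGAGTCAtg
Sdc4, 9830 bp downstream: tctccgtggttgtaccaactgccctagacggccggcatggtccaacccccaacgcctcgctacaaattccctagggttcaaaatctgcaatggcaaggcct
Cav1, 40130 bp downstream: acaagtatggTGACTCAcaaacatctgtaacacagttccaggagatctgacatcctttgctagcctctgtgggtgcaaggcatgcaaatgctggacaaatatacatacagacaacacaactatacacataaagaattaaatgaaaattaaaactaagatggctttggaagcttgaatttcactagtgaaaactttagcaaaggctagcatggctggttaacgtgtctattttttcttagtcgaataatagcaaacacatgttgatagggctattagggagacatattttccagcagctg
Foxo3, 26765 bp downstream: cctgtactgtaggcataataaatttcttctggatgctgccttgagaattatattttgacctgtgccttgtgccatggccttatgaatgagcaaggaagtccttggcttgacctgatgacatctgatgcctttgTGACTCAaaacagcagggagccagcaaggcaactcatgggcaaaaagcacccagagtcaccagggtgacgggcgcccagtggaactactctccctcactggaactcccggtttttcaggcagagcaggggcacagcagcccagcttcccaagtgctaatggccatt
Cd34, at the TSS: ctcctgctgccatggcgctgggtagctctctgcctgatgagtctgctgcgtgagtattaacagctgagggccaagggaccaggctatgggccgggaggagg
The window 28536 bp upstream of Ncam1 holds an unbroken run of alternating G and A of 58 bp. The summit of young replicate 1 lies inside it, and the summits of the other libraries lie outside it. In the windows of Ncam1 at 17456 bp, of Sdc4 and of Cd34 no AP-1 site was found in the 101 bp shown.

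Most JunB peaks near these genes lay more than 3 kb from a TSS of the gene itself. Within 3 kb of a TSS there were 2, 2 and 0 young JunB peaks (1.33 ± 1.15, SD, n = 3) and 5 aged ones, and at 3 to 50 kb there were 17, 12 and 12 (13.7 ± 2.89, SD, n = 3) and 18. Some of the more distant peaks lay at the start of another gene. Counted against every protein-coding TSS, 78.9, 78.6 and 91.7% of the young peaks and 60.9% of the aged peaks (exact 95% binomial interval 38.5 to 80.3%) were farther than 3 kb away, against 75.5, 68.2, 69.5 and 64.4% of the whole lists, and each interval held the share of its list. The aged counts in both distance bands were above every young count, but the aged list was also the longest. As a share of each list, the peaks within 50 kb made up 0.199, 0.287 and 0.311% of the young lists (0.266 ± 0.059%, SD, n = 3) and 0.163% of the aged list, below every young value. With the 3863 strongest peaks taken from each list, the aged library held 10 such peaks and the young libraries held 7, 10 and 12, so the aged total no longer exceeded every young one. Within 3 kb it still did, with 3 aged peaks against 0, 1 and 0 young.

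**Figure D1:**
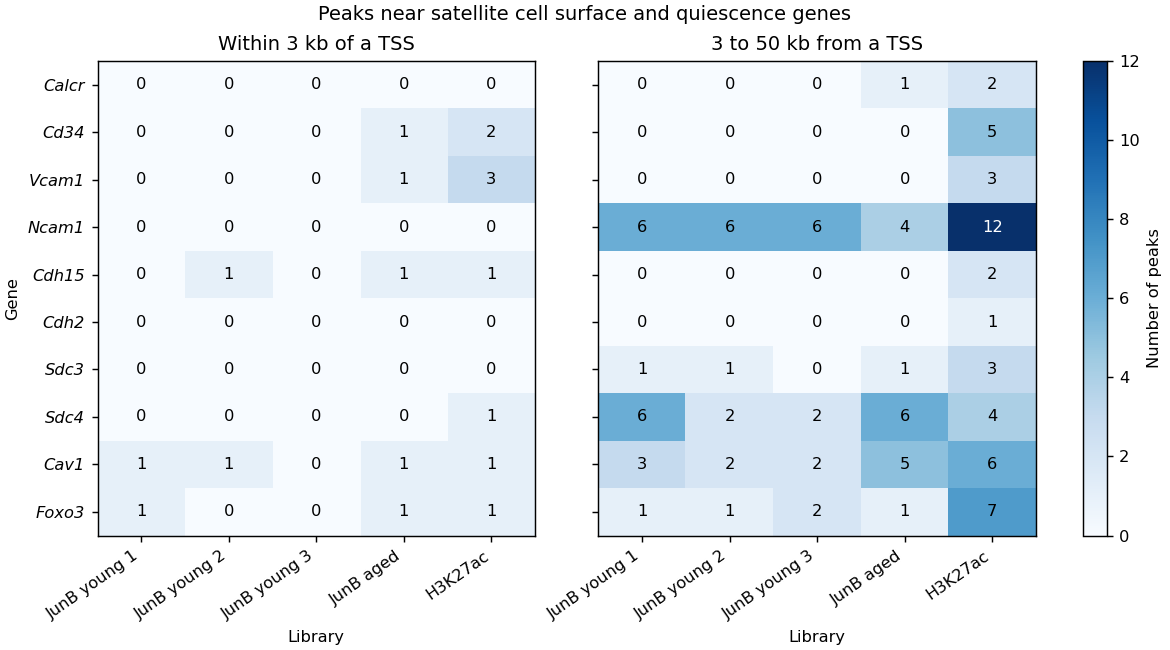
Number of peaks near each of the 10 genes (rows) in each library (columns), within 3 kb of a TSS (left) and at 3 to 50 kb (right). Ncam1 held 6 JunB peaks in each young library and 4 in the aged library, all at 3 to 50 kb, and Cdh2 held none.

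Counted by gene, Cdh15, Cav1 and Foxo3 (3 of 10) had a JunB peak within 3 kb in at least 1 young library, where 12.7% of all protein-coding genes did, and none of the 10 did in all 3 young libraries, where 4.52% did. In the aged library Cd34, Vcam1, Cdh15, Cav1 and Foxo3 (5 of 10) had one, against 23.9% of all genes. Within 50 kb, Ncam1, Sdc4, Cav1 and Foxo3 (4 of 10) had a JunB peak in every one of the 4 libraries, against 19.0% of all genes, and 9 of 10 had one in the aged library, against 58.4%. Calcr, Cd34 and Vcam1 (3 of 10) had one only there, against 20.6% of all genes, and no gene of the 10 had one in a young library but not in the aged, against 6.09%. For single young libraries the counts were 2, 2 and 0 of 10 genes within 3 kb, against 11.0, 7.74 and 5.91% of all genes, and 5, 6 and 4 within 50 kb, against 40.4, 27.5 and 23.4%; 6 of 10 genes had a young JunB peak of any replicate within 50 kb, against 43.9%. With so few genes these shares are a description with no test.

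**Figure D2:**
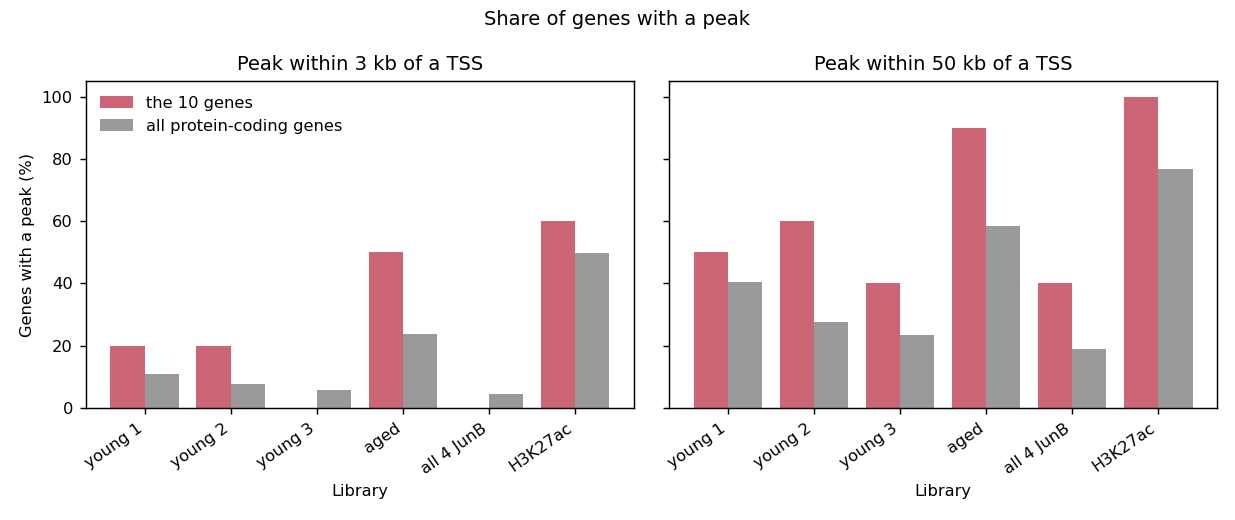
Percentage of the 10 genes and of all 21938 protein-coding genes with a peak within 3 kb (left) or 50 kb (right) of a TSS, for each library and for genes with a peak in each of the 4 JunB libraries; a missing bar is 0. In the aged library 5 of the 10 genes had a JunB peak within 3 kb, against 23.9% of all genes.

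Where peaks of different libraries overlapped or touched, they were joined, which gave 30 JunB regions near 9 of the 10 genes. Of these, 9 had a peak in all 4 libraries (30.0%, against 14.4% of the 13404 joined regions within 50 kb of any protein-coding TSS), 4 in 3 libraries, 3 in 2 and 14 in 1 (46.7%, against 63.2%). The aged library alone gave 9 regions (30.0%, against 46.4%) and the young libraries alone gave 7 (23.3%, against 21.6%), of which 5 came from a single young library. The summit of the strongest peak lay in an intron in 17 regions, between genes in 10, in an exon in 2 and in a UTR in 1. For 23 regions a TSS of one of the 10 genes was the nearest protein-coding TSS, and for 7 another gene was nearer.

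**Figure D3:**
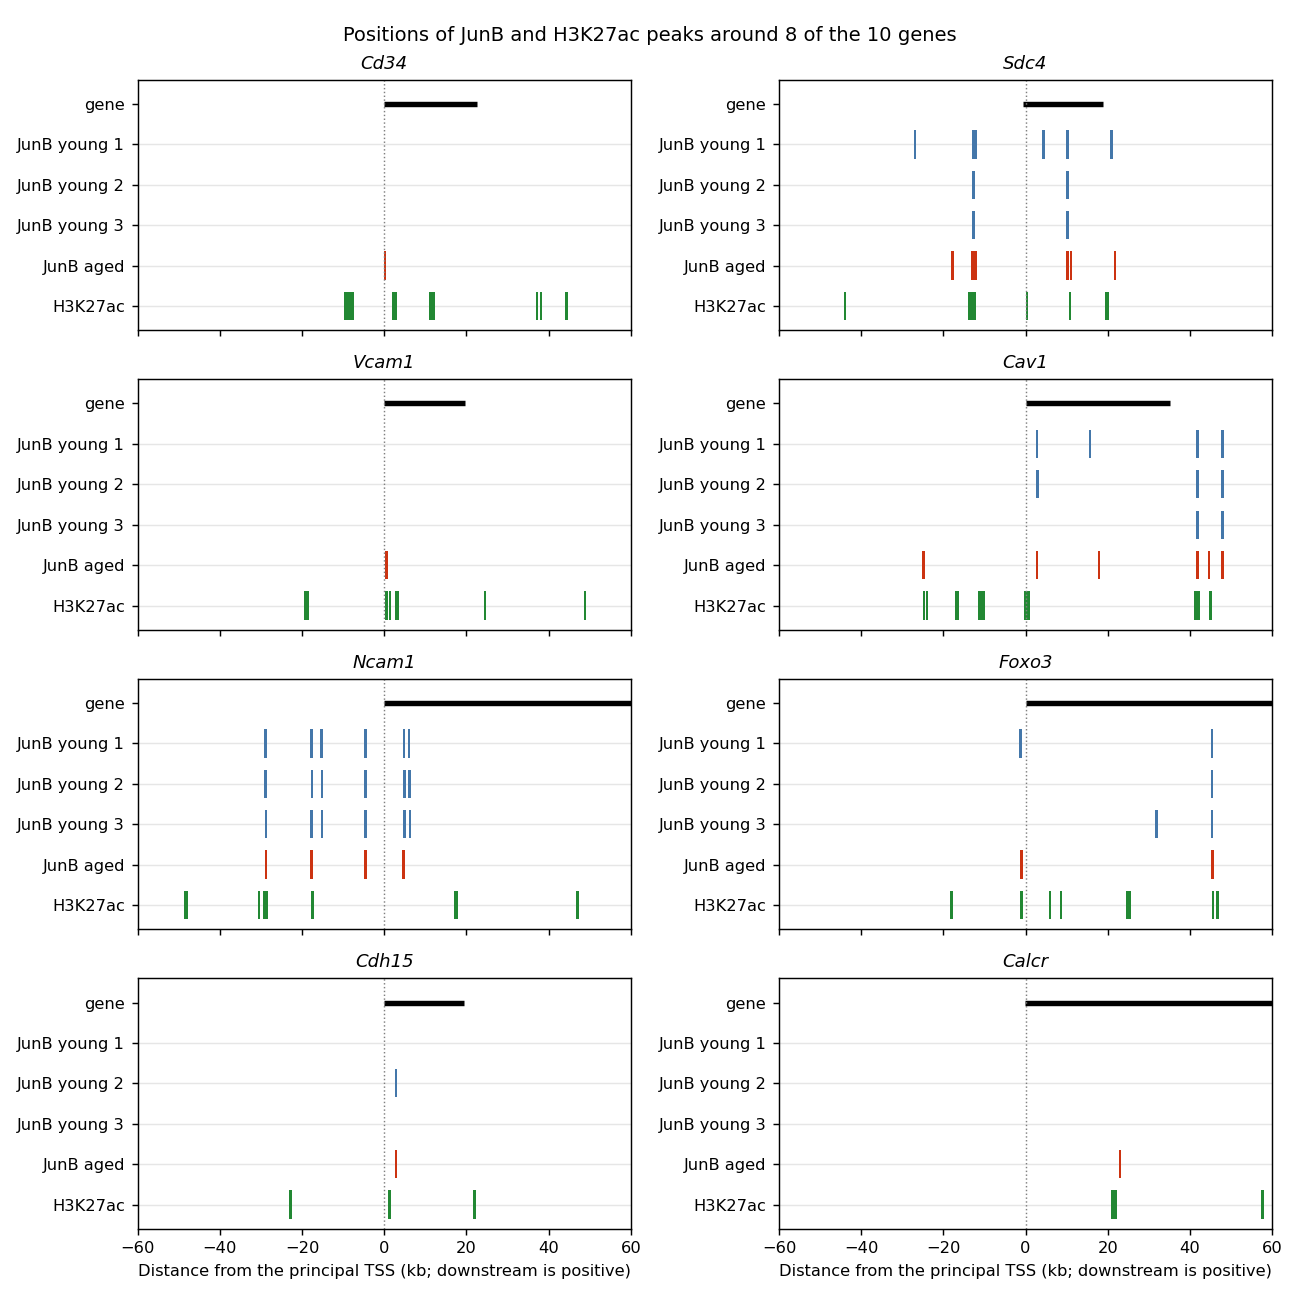
Peaks of the 5 libraries around 8 of the 10 genes, drawn by distance in kb from the TSS of the principal transcript, with transcription running to the right and the gene body as a black bar; short peaks are widened to 0.6 kb to be seen. Distances in the text are to the nearest TSS of any transcript and can be shorter than on this axis, as for Foxo3 and Calcr.

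Of the surface receptor and the sialomucin, neither had a JunB peak in a young library. Calcr, the calcitonin receptor (chr6:3685680-3764714, − strand), had 1 aged JunB peak in an intron, 11058 bp downstream of a TSS. Its fold enrichment was 3.63, its −log10 p 4.28 and its −log10 q 1.41, and it lay 430 bp from an H3K27ac peak without overlapping it. The gene had 2 H3K27ac peaks within 50 kb and none within 3 kb. Cd34, a heavily glycosylated surface protein used to isolate quiescent satellite cells (chr1:194938819-194961279, + strand), had 1 aged JunB peak over its TSS, chr1:194938816-194939288, with a fold enrichment of 3.41, a −log10 p of 3.94 and a −log10 q of 1.24. No H3K27ac peak overlapped it, the nearest being 1458 bp away, although Cd34 had 7 H3K27ac peaks within 50 kb and 2 within 3 kb. Both aged peaks lay below the lowest −log10 p in the lists of young replicates 2 and 3. With all lists held to a −log10 p of at least 5.33, or a −log10 q of at least 2, neither Cd34 nor Calcr had a JunB peak in any library.

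The immunoglobulin-type adhesion genes Vcam1 and Ncam1 gave different patterns. Vcam1, a ligand of integrins (chr3:116109949-116129688, − strand), had no young JunB peak within 50 kb and 1 aged peak over a TSS, chr3:116128909-116129492. Its fold enrichment was 4.41 and its −log10 p 6.27, and it overlapped one of the 3 H3K27ac peaks that Vcam1 had within 3 kb. This peak stayed when all lists were held to a −log10 p of 5.33 and was lost at equal list length, where it ranked 8271 of 14123.

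Ncam1, the neural cell adhesion molecule found on satellite cells and myoblasts (chr9:49502136-49798925, − strand), had the most young JunB peaks of the 10 genes, a place it shared with Sdc4 for replicate 1 alone. Each young library had 6 peaks, which fell at the same 6 places between 5667 bp downstream and 28536 bp upstream of the start of the gene. Only 0.479, 0.178 and 0.0684% of protein-coding genes had at least 6 JunB peaks within 50 kb in these libraries. The number 6 was chosen after the values were seen, and the 7 TSSs of Ncam1 span a window of 226 kb, which gives it more room than most genes; all of its JunB peaks nevertheless lay around the start of the gene. The aged library had 4 peaks, at 4 of the 6 places, and 7.56% of genes had at least 4 there.

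The strongest Ncam1 region, chr9:49816381-49816913 at 17456 bp upstream, had a fold enrichment of 12.1, 14.5 and 14.8 young (13.8 ± 1.48, SD, n = 3) and of 8.17 aged. By −log10 p it stood within the top 3.68, 5.16 and 5.77% of the young lists and the top 7.09% of the aged list. The region 28536 bp upstream, with the GA run, had a fold enrichment of 11.0, 10.6 and 6.99 young and 6.07 aged; the AP-1 site of its window lies within 50 bp of the summit of the aged peak but not of any young peak. Both overlapped H3K27ac, and in both the aged value lay below every young value. Of the other places found in all 4 libraries, 4454 bp upstream the fold enrichment was 4.57, 8.56 and 8.60 young and 4.99 aged, and 4364 bp downstream it was 4.46, 5.41 and 7.23 young and 4.02 aged.

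The remaining 2 Ncam1 places had a peak in all 3 young libraries and none in the aged. At 15006 bp upstream the young fold enrichment was 6.46, 5.02 and 5.75 (5.74 ± 0.723, SD, n = 3), and at 5667 bp downstream it was 3.56, 5.17 and 5.36 (4.69 ± 0.988, SD, n = 3). The aged list ran to a threshold as low as any of the others, and the files do not give its signal below that threshold. H3K27ac covered neither place, nor the 2 at 4454 bp upstream and 4364 bp downstream. Ncam1 had 12 H3K27ac peaks within 50 kb of its TSSs and none within 3 kb.

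Of the cadherins, which join the satellite cell to the muscle fibre, Cdh15 (M-cadherin, chr8:122847966-122867397, + strand) had a JunB peak 2717 bp downstream of its TSS in an intron, found by young replicate 2 and, at the same place, by the aged library. The fold enrichment was 6.61 in the young library and 6.46 in the aged, and replicates 1 and 3 had no peak. This peak is the one closest to the 3 kb boundary on its inner side. It did not overlap H3K27ac, which had its nearest peak 1264 bp away. Cdh2 (N-cadherin, chr18:16588877-16809246, − strand) had no JunB peak within 50 kb in any library, where 64.5% of protein-coding genes had one in at least 1. It had 1 H3K27ac peak, in an intron 3069 bp from an internal TSS and so just outside the 3 kb boundary, with a fold enrichment of 3.32. The TSS of the principal transcript, at chr18:16809246, had no H3K27ac peak within 50 kb.

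The syndecans are transmembrane heparan sulfate proteoglycans that act as co-receptors for growth factors such as FGF and HGF. Sdc3 (chr4:130792537-130826319, + strand) had 1 JunB region, between genes beyond its 3′ end. It lay 44915 bp downstream of an internal TSS and 69223 bp from the TSS of the principal transcript. The fold enrichment was 7.47 and 8.22 for replicates 1 and 2 and 7.58 aged, and replicate 3 had no peak. The region lay 31973 bp from the nearest H3K27ac peak, and Sdc3 had no H3K27ac peak within 3 kb.

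Sdc4 (chr2:164424247-164443887, − strand) had 6, 2 and 2 young JunB peaks and 6 aged ones, none of them within 3 kb of its TSSs, although its start carried H3K27ac. It was the only one of the 10 genes with H3K27ac but no JunB peak in any library within 3 kb, a state found in 27.2% of all genes. Its intronic region 9830 bp downstream, chr2:164432650-164433356, had a peak in all 4 libraries, with a fold enrichment of 11.2, 9.89 and 7.69 young (9.59 ± 1.77, SD, n = 3) and 9.41 aged, within the young range. Only the peak of replicate 1, which was 707 bp wide, reached an H3K27ac peak; those of the other 3 libraries did not. The second region found in all 4 libraries, 11751 bp upstream, overlapped H3K27ac but stood 492 bp from the TSS of Sys1, a gene of Golgi trafficking, and its fold enrichment was 4.07, 4.95 and 5.33 young and 6.61 aged, above every young value. A neighbouring region 11278 bp upstream had a peak of replicate 1 and an aged peak and was also nearest to Sys1. Sdc4 had a further 6 regions, each found in 1 library, of which 3 were peaks of young replicate 1 and 3 were aged peaks. Several of these were also nearer to another gene. The regions 21498 and 20741 bp downstream were nearest to Matn4 and the one 26100 bp upstream to Trp53tg5. The aged peak 16968 bp upstream lay over a TSS of Gm20458.

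Cav1 codes for caveolin-1, the scaffold protein of the membrane pits called caveolae (chr6:17306335-17341452, + strand). It had 4, 3 and 2 young JunB peaks within 50 kb and 6 aged ones, and 1.61% of genes had at least 6 in the aged library. That number, which Sdc4 also reached, was again chosen after the values were seen. The region 40130 bp downstream, chr6:17347853-17348531, beyond the 3′ end of Cav1 and within an intron of the overlapping transcripts Gm15581 and Gm29591, held the strongest JunB peak near any of the 10 genes in each of the 4 libraries. Its fold enrichment was 16.8, 15.2 and 15.4 young (15.8 ± 0.863, SD, n = 3) and 9.86 aged. It ranked 163, 216 and 198 in the young lists and 400 in the longer aged list. As a share of each list this was the top 1.71, 4.42 and 5.13% young and the top 2.83% aged, within the young range. The region overlapped H3K27ac, and it holds TGACTCA 2 times, the nearer one 136 bp from the summit of replicate 1. A second region, 46331 bp downstream, also had a peak in all 4 libraries, with 8.71, 11.1 and 11.5 young and 6.87 aged, and did not overlap H3K27ac.

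Within 3 kb, Cav1 had a JunB peak 1152 bp downstream of a TSS, in an intron, in every library but young replicate 3. Its fold enrichment was 5.01 and 4.94 young and 6.09 aged. Of the 3 regions found in the aged library alone, one lay 24534 bp upstream, over the start of Cav2, the gene of the partner protein caveolin-2, and overlapped H3K27ac. The other two lay 16358 bp and 43088 bp downstream, with a −log10 p of 4.90 and 4.46, below the lowest value in the lists of young replicates 2 and 3.

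Foxo3, a forkhead transcription factor known for its part in satellite cell quiescence (chr10:42181841-42276755, − strand), had 2, 1 and 2 young JunB peaks within 50 kb and 2 aged ones. The intronic region 26765 bp downstream of a TSS, chr10:42231057-42231601, had a peak in all 4 libraries and overlapped H3K27ac. Its fold enrichment spread widely among the young libraries, at 5.21, 7.23 and 10.4 (7.61 ± 2.61, SD, n = 3), and was 4.40 in the aged, below every young value. The AP-1 site in this region lies 13 bp from the summit of replicate 3. At the promoter, chr10:42277408-42278165 at 653 bp upstream, the aged library had a peak of 6.57-fold enrichment and young replicate 1 one of 4.98-fold, both over H3K27ac, and replicates 2 and 3 had none. The last Foxo3 region, 13376 bp downstream, was found in young replicate 3 alone.

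**Figure D4:**
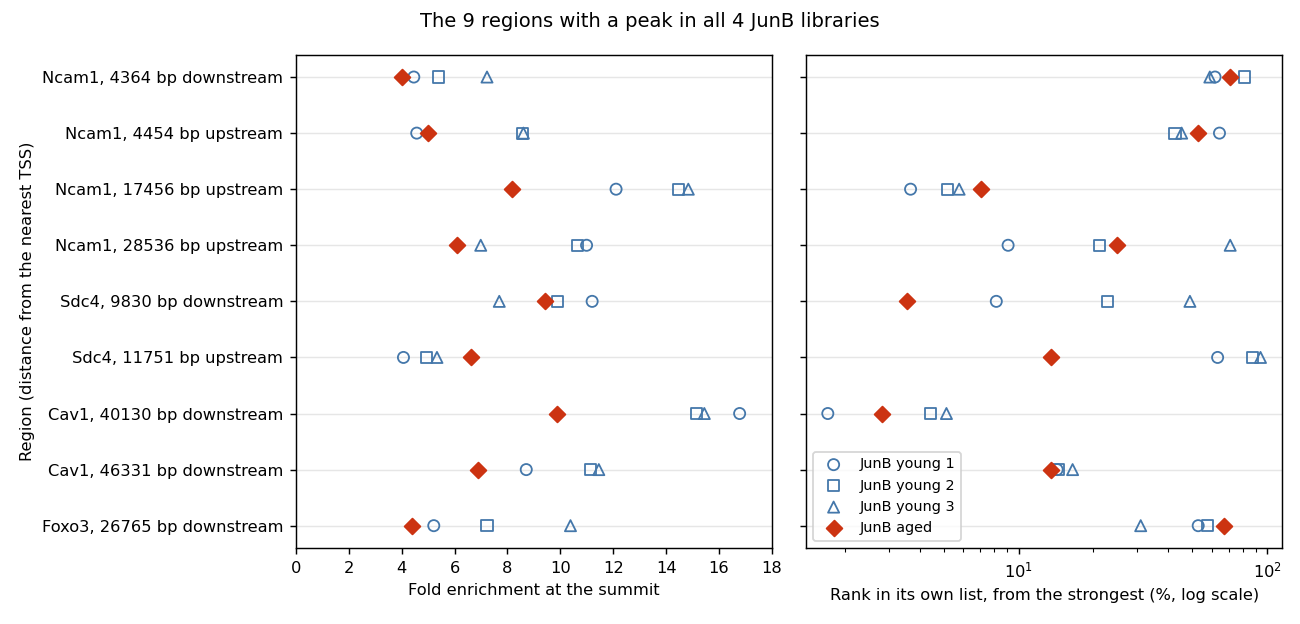
Fold enrichment at the summit (left) and rank in the library's own list by −log10 p, in percent from the strongest (right, log scale), for the 9 regions with a JunB peak in all 4 libraries; open blue symbols are the 3 young libraries and filled red diamonds the aged library. The aged fold enrichment lies below every young value in 6 regions, within the young range in 2 and above it in 1. By rank the aged peak stands lower than in every young list only at Ncam1, 17456 bp upstream, and at Foxo3.

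Across the 9 regions with a peak in all 4 libraries, the aged fold enrichment was below every young value in 6 (Ncam1 at 4364, 17456 and 28536 bp, both Cav1 regions and Foxo3), within the young range in 2 and above it in 1, the region beside Sys1. The median over the whole list was also lowest in the aged library, at 4.93, against 5.20, 7.74 and 8.11 young. The lists of replicates 2 and 3 were cut at a higher −log10 p, so their medians leave out weak peaks and are not comparable. Only replicate 1, at 5.20, reached as low a −log10 p (3.01) as the aged list. Fold enrichment also depends on each library's own background, so the lower aged values cannot be told apart from a difference between libraries. By rank in percent of the list, of those 6 regions only Ncam1 at 17456 bp and Foxo3 stood lower in the aged list than in every young list. Cav1 at 46331 bp stood nearer the top, at 13.5% aged against 14.3, 14.5 and 16.5% young, and the others lay within the young range. Rank in percent depends in turn on how far down each list runs.

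H3K27ac lay within 3 kb of Cd34, Vcam1, Cdh15, Sdc4, Cav1 and Foxo3 (6 of 10, against 49.8% of all genes) and within 50 kb of all 10 genes (against 76.6%). For Cdh2 this held for an internal TSS only. The 5 genes with an aged JunB peak within 3 kb all had H3K27ac there too, as did 88.3% of all genes with such a JunB peak, but the peaks themselves overlapped only at Vcam1 and Foxo3. Of the 54 H3K27ac peaks within 50 kb, JunB peaks overlapped 8, 6 and 6 (young) and 10 (aged), and 10 (18.5%) in any library, against 20.1% of all H3K27ac peaks. These 10 belonged to Vcam1 (1), Ncam1 (3), Sdc4 (2), Cav1 (2) and Foxo3 (2).

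Taken from the JunB side, 42.1, 35.7 and 41.7% of the JunB peaks near the 10 genes from young libraries overlapped H3K27ac (39.8 ± 3.59%, SD, n = 3) and 43.5% did in the aged library (exact 95% binomial interval 23.2 to 65.5%). In the whole lists the shares were 46.8, 61.8 and 61.2% young and 47.1% aged. The shares near the 10 genes were thus lower in each library, but every interval around them, from 12 to 23 peaks, held the share of the whole list. For peaks farther than 3 kb from any protein-coding TSS the shares near the 10 genes were 33.3, 36.4 and 36.4% young and 35.7% aged, against 40.0, 56.2, 56.5 and 35.6% of such peaks in the whole lists. Among the 9 regions with a peak in all 4 libraries, 6 overlapped H3K27ac (66.7%, against 69.9% of the 2470 such regions genome-wide), and among the 14 regions of a single library 3 did.

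**Figure D5:**
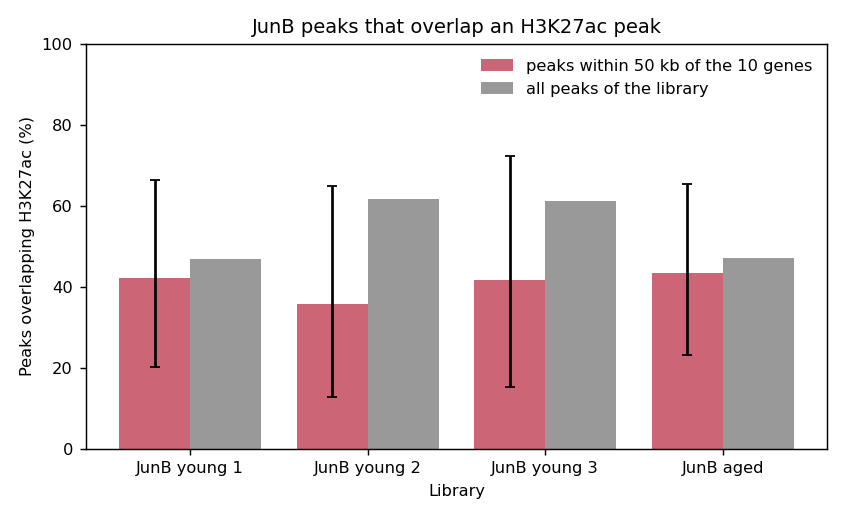
Percentage of JunB peaks that overlap an H3K27ac peak by at least 1 bp, for peaks within 50 kb of the 10 genes (red, with exact 95% binomial intervals, which cover counting error only) and for all peaks of the library (grey). The shares near the 10 genes run from 35.7 to 43.5%, and each interval holds the value of the whole list.

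The AP-1 site was seldom at the summit. TGACTCA, on either strand, lay within 50 bp of the summit in 0 of 19, 1 of 14 and 1 of 12 young peaks near the 10 genes and in 2 of 23 aged peaks, all of them at the intronic Foxo3 region or, once, at Ncam1 28536 bp upstream, where 5.24, 5.87 and 7.21% of all young peaks and 3.59% of all aged peaks held it. Over their full length, 8 of the 30 regions held TGACTCA, 9 held TGANTCA, which includes the former, and none held the related site TGACGTCA. In RefSeq promoter sequences of GRCm38, running from 250 bases before to 50 after a start, 9 promoters of 7 of the genes were matched (Calcr, Cav1, Cd34, Cdh15, Foxo3, Sdc3 and Sdc4). None of the 9 held any of the 3 sites, in that order found in 5.20, 7.81 and 1.79% of all 32851 promoters.

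A list of 20 further genes of the satellite cell surface and niche was also examined. In the aged library 7 of the 20 had a JunB peak within 3 kb, against 23.9% of all genes. Among the 7 were the integrins Itga7 and Itgb1, the receptors Fgfr1 and Tek, the Notch target Hey1 and the prion protein gene Prnp. In at least 1 young library 5 of the 20 had one (among them Met, Fgfr1, Tek and Prnp), against 12.7% of all genes. Fgfr1 and Prnp had one in all 4 libraries, as 4.36% of all genes did and none of the 10 described genes. Within 50 kb, 10 of the 20 had a JunB peak in all 4 libraries, against 19.0% of all genes. Among 19 family members or receptor partners of the 10 genes, 5 had an aged JunB peak within 3 kb (Calcrl, Cdh13, Sdc2, Cav2 and Foxo6), a share close to the 23.9% of all genes. In all 4 libraries 2 of the 19 had a JunB peak within 50 kb (Foxo4 and Foxo6), a share below the 19.0% of all genes. These lists were not tested against the background shares given above.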

How the data were processed

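JunB was profiled by CUT&RUN in MuSCs of 3 young samples and 1 aged sample, and H3K27ac in 1 sample. Per the labels and the study's methods, the authors trimmed and quality-filtered the reads, used Bowtie2 for alignment to mm10, removed duplicate reads and ran MACS2 on every library by itself, with a p-value limit for JunB; the versions are not given in the sources used here. The deposited lists give the position of each peak, a fold enrichment (a ratio over local background), the −log10 p and −log10 q, and the offset of the summit (an integer score column was not used). The 3 young libraries were treated as replicates, with mean ± SD. The lists differed in their lowest −log10 p. Their lowest −log10 q was 2.26 and 2.10 for young replicates 2 and 3, but 0.405 for replicate 1 and 0.672 for the aged list. A q-value limit for replicates 2 and 3 is not stated in the sources but would be possible. The lists were therefore also compared at common thresholds and at equal length.

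Peaks were assigned in Python 3.11.15 with pandas 2.3.3 and numpy 2.4.6 by the distance from their nearest edge to the TSSs of GENCODE M21 (GRCm38, chromosomes 1 to 19, X and Y), upstream and downstream following the strand. Background shares are over 21938 protein-coding genes, treated alike. Overlap meant at least 1 bp, and JunB peaks that overlapped or touched were joined. Exact binomial intervals (95%, Clopper-Pearson, scipy 1.17.1) cover counting error only. Every one of the 10 genes was described, with regions of at least 2 libraries, the strongest and nearest peaks; genes of other lists were named for a JunB peak within 3 kb or as markers, and Sys1 and the single-library regions were named after their values were seen. Distances, overlaps and joining were checked on simulated data. The genes and lists were chosen with earlier results of these data known. Peak lists with 1 aged library allowed no test between ages. Alternatives were thresholds, list length, window sizes, overlap rules and leaving out each young library.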

Additional observations from a re-analysis of the deposited data

How the results depend on the processing

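No paired analysis was possible because the aged group has 1 library and no result comes from a test. Of 110 alternative values for 12 results, 87 were counted as within limits. For counts the limit was 1.5 times the reported count, and for young means it was the spread of the young libraries. The aged shares, from 1 library, have no such spread, and all their alternatives were counted as within limits. The aged H3K27ac share nevertheless moved by more than the young SD at several settings. It rose with shorter lists and higher thresholds and fell with stricter overlap rules. List length mattered most. With the 2000 strongest peaks of each JunB list, 0 genes had a JunB peak within 3 kb, aged or young. Within 50 kb, 3 genes had one in the aged library and 4 in any young library. The peaks numbered 5 aged and 5.67 young on average, 4 regions were shared by all 4 libraries and the young H3K27ac share was 58.9%. With 3863 peaks from each list these values were 3 aged and 1 young gene within 3 kb, 6 and 6 genes within 50 kb, 10 and 9.67 peaks, 5 shared regions and 46.3%. The genes within 3 kb were then Cav1, Cdh15 and Foxo3 aged and Cdh15 young, so Cd34 and Vcam1 were lost.

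At a promoter limit of 1 kb, 3 aged and 0 young genes had a JunB peak, and at 5 kb 5 young genes did. With a distal limit of 20 kb the peaks numbered 15 aged and 9.67 young on average, and with 100 kb 35 and 21.7. The young H3K27ac share was 35.7% for peaks whose nearest protein-coding TSS was that of a described gene, 31.2% with the summit inside H3K27ac and 24.2% with at least 50% of the peak covered. A −log10 p of at least 5.33 in every list, an alternative added after seeing the data, left 17 aged peaks. Without 1 young library in turn, 9 to 11 regions were shared by all remaining JunB libraries, young libraries had a peak within 3 kb of 2 to 3 genes, and the young H3K27ac share was 38.7 to 41.9%. The unknown read depth limits what a missing peak can show.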
